A study of Mus musculus with 8 samples.

Results

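The 32 genes described here belong to 2 stress programs of the cell, and they were taken by symbol from a table of 22691 genes counted by RNA-seq in mouse small cell lung cancer cells. All 32 were found in the table and all 32 passed the filter on low counts, which kept 13380 genes. Of these, 18 form the chaperone and Xbp1 branch and 14 form the Atf4 branch.

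Proteins that enter the endoplasmic reticulum (ER) are folded there by chaperones, and a load of unfolded protein switches on the unfolded protein response. Its sensor Ire1 splices the mRNA of Xbp1, its sensor Atf6 is cut into a transcription factor, and both raise genes for folding and for disposal of misfolded protein. Its sensor Perk slows translation, which favours the making of the transcription factor Atf4. Lack of amino acids raises Atf4 through another kinase, Gcn2, and Atf4 raises genes that make and import amino acids. Small cell lung cancer is a neuroendocrine tumor whose cells export peptides through the ER.

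The study asked what forced expression of the transcription factor Nfib, a member of the nuclear factor I family, does in such cells. The Nfib group held 4 libraries from cells that overexpressed mouse Nfib, and the empty vector group held 4 libraries from the same 4 cultures. All 8 came from primary lung tumors of animals with the invCAG-Mycl-Luc transgene and without Rb1, on an FVB/n and 129/Ola background, so the empty vector cells carry these alleles too. Replicate 1 was line Lmyc1 with the word old in its description, replicate 2 was Lmyc3 old, replicate 3 was Lmyc3 new, and replicate 4 was Lmyc5 new. The words old and new are not explained in the sources used here, and animal ages are not given. Each replicate is called a culture or a pair below, and nothing says that the cells of a culture and arm were grown more than once, so p-values measure only the spread between these libraries.

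Library totals lay between 21815264 and 29934021 counts, and 3 counts, the limit that a count of 0 allows, equalled at most 0.138 counts-per-million (CPM). Nfib itself stood at 1282, 4682, 2933 and 3590 CPM in the Nfib libraries of replicates 1 to 4, against 72.0, 400.2, 163 and 487 CPM in the empty vector libraries. The summed level of 9 neuroendocrine and lung lineage markers was 2111 to 4661 CPM in Nfib libraries and 3016 to 4921 CPM in empty vector libraries. Summed fibroblast markers reached at most 12.7 CPM in Nfib libraries and 10.5 CPM in empty vector libraries. Leukocyte markers summed to 19.7 to 46.1 CPM in Nfib libraries and 29.5 to 58.1 CPM in empty vector libraries, nearly all of it Coro1a, which was lower with Nfib (-0.47 on the log2 scale, DESeq2 adjusted p of 0.0302, lost without replicate 2, 3 or 4 at 0.202, 0.275 and 0.382), while Ptprc was at 0 in 7 libraries. Endothelial markers summed to 44.9 to 576 CPM in Nfib libraries and 51.8 to 650 CPM in empty vector libraries, nearly all of it Vwf, with Cdh5 at most at 0.045 CPM. Lung epithelial markers summed to 86.6 to 123 CPM in Nfib libraries and 85.4 to 119 CPM in empty vector libraries, mostly Abca3, with Aqp5 higher with Nfib by 3.08 ± 0.71 on the log2 scale (SE, DESeq2 adjusted p of 0.00119, and 0.0523 without replicate 2). The lineage factor Nkx2-1, among the 9 markers, was at -0.39 ± 0.11 with an adjusted p of 0.0122, a call lost without replicate 3 (0.192) and without replicate 4 (0.139). Mitochondrial genes held 3.46%, 3.48%, 3.63% and 2.20% of counts in the Nfib libraries and 3.86%, 4.81%, 3.84% and 2.55% in the empty vector libraries, a lower share with Nfib in every pair. In bulk libraries, fewer cells of a type and less RNA per cell cannot be told apart.

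Promoter letters that the 2 branches are known for are shown first, as a feature that no expression value enters. RefSeq promoters (GRCm38.p6, 250 bases before to 50 bases after the start, 300 bases) were at hand for 16 of the 18 chaperone and Xbp1 genes and 13 of the 14 Atf4 genes. The ER stress element, read as CCAAT and CCACG with 9 bases between them on either strand, is bound by Atf6 together with the factor NF-Y. It was found in 7 of the 16 chaperone and Xbp1 genes (Calr, Canx, Creld2, Dnajc3, Hsp90b1, Hspa5 and Pdia6) and in 0 of the 13 Atf4 genes, against 0.137% of 27025 genes. A second form, ATTGG and CCACG with 1 base between them, was found in Dnajb11 and Herpud1, 2 of the 16, against 0.0444% of genes. The letters TGATGNAA, the core of sites where Atf4 pairs with a C/EBP factor, were found in 6 of the 13 Atf4 genes (Asns, Atf3, Chac1, Slc7a11, Trib3 and Vldlr) and in 1 of the 16 others (Herpud1), against 4.51% of genes. The Xbp1 core TGACGTGG was in none of the member promoters and in 0.714% of genes. Of the genes with a promoter at hand, 7 of the 16 and 7 of the 13 held none of these letters. A match describes letters only and is not a bound site. Hspa5, Calr, Canx and Herpud1 are printed for the first branch, each in the direction of its gene with the matched letters in capitals. The Hspa5 stretch lies at chr2:34772005-34772063 on the plus strand, Calr at chr8:84847055-84847113 and Canx at chr11:50325780-50325838 on the minus strand, and Herpud1 at chr8:94386297-94386407 on the plus strand.
Hspa5: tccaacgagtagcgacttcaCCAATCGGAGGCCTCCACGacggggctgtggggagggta
Calr: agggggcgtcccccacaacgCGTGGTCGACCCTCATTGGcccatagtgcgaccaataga
Canx: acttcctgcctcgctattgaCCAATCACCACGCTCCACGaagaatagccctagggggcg
Herpud1: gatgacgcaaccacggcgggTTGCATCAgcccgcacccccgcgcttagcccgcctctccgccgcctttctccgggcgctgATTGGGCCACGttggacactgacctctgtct

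For the Atf4 branch, all 6 promoters with the core are printed in the same way, with the core in capitals on whichever strand it lies. The stretches are Asns at chr6:7693205-7693252, Atf3 at chr1:191183416-191183463, Slc7a11 at chr3:50443633-50443699 and Trib3 at chr2:152344031-152344066 on the minus strand, and Chac1 at chr2:119351029-119351076 and Vldlr at chr19:27216800-27216847 on the plus strand. Slc7a11 holds the core on each strand, with the cores facing each other. In Trib3 the core lies just past the start. Vldlr has a further promoter, at chr19:27216234-27216533, that holds no core.
Asns: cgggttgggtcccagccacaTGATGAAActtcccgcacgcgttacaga
Atf3: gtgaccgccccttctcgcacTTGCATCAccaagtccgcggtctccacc
Chac1: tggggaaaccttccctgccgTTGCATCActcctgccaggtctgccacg
Slc7a11: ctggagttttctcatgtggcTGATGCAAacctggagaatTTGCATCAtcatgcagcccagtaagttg
Trib3: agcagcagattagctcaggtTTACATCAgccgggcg
Vldlr: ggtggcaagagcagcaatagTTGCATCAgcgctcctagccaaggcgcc

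With Nfib, Xbp1 was the 1 member of 32 that rose, and none fell. Here rose and fell mean an adjusted p (Benjamini-Hochberg over all genes tested) under 0.05 in DESeq2's Wald test with the pair as a block, which called 1.86% of all genes higher and 2.2% lower. EdgeR's quasi-likelihood test called 0% of genes without the block and 0% with it, so no member passed under edgeR. Nfib itself, far higher in the Nfib library of every pair, was not called either. The lack of an edgeR call thus does not show that a member was unchanged. At an unadjusted p under 0.05, edgeR without the block picked 0 members and 83 genes, and with the block 4 members and 2012 genes. The median DESeq2 log2 fold change was 0.03 over the 18 chaperone and Xbp1 genes, 0.18 over the 14 Atf4 genes and -0.0062 over all genes.

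Xbp1 (ENSMUSG00000020484, chromosome 11, 5520659 to 5525893, GRCm38) encodes the factor whose spliced mRNA carries the Ire1 signal. It stood at 59.2, 74.5, 104 and 268 CPM in the Nfib libraries of replicates 1 to 4, against 47.9, 47.7, 89.5 and 202 CPM in the empty vector libraries. The Nfib library was the higher one of every pair, but the ranges of the groups overlap widely because the cultures differ. The group means were 126 ± 96.0 CPM with Nfib and 96.8 ± 72.9 CPM with empty vector (SD, n = 4 each). The paired DESeq2 log2 fold change was 0.38 ± 0.10 (SE), with an adjusted p of 0.00901, while edgeR with the pair as a block gave 0.39 and an adjusted p of 0.177. The DESeq2 call was lost without replicate 1 (adjusted p of 0.0649) and without replicate 4 (0.233), and held without replicate 2 (0.0448) and without replicate 3 (0.0271). The lower mitochondrial share in the Nfib library of each pair moved with this result, and its part in it was not tested. Gene counts do not separate spliced from unspliced Xbp1 mRNA.

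None of the chaperones passed either test. Hspa5 (ENSMUSG00000026864, chromosome 2, 34771970 to 34776531), the ER Hsp70 chaperone that holds the 3 sensors inactive, stood at 629, 533, 615 and 446 CPM in Nfib libraries and 629.7, 504, 648 and 428 CPM in empty vector libraries. It was higher with Nfib in 2 pairs and lower in 2, and the paired DESeq2 estimate was 0.0073 ± 0.058 on the log2 scale (SE, adjusted p of 0.986). Calr (calreticulin, a lectin chaperone that binds calcium; chromosome 8, 84841850 to 84846934) stood at 477, 378, 551 and 524 CPM in Nfib libraries and 456, 388, 557 and 517 CPM in empty vector libraries. Its libraries differ between cultures far more than within a pair. Over the 8 folding genes, the DESeq2 log2 fold changes lay between -0.13 (Pdia6, a protein disulfide isomerase) and 0.08 (P4hb, the major disulfide isomerase). Pdia4, another disulfide isomerase, was lower with Nfib in all 4 pairs, by 0.06 to 0.24 on the log2 scale, without passing a test (DESeq2 adjusted p of 0.477). Dnajb11 was also lower in all 4 pairs, and Creld2, Manf and Edem1 were, like Xbp1, higher in all 4, with log2 fold changes of 0.12, 0.11 and 0.19 and DESeq2 adjusted p of 0.695, 0.639 and 0.241. Over all 13380 genes, 1711 were higher and 1712 lower in all 4 pairs.

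**Figure D1:**
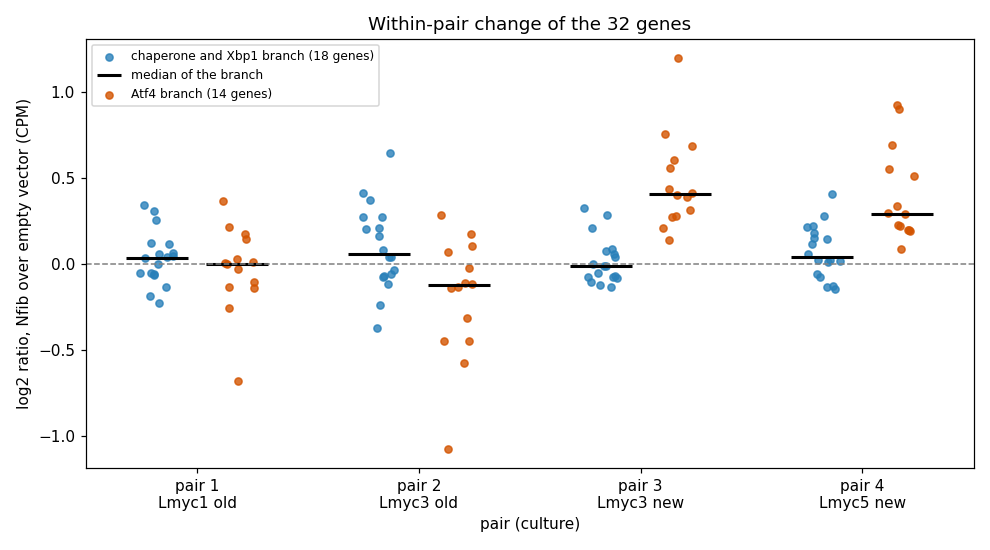
Within-pair log2 ratio of CPM, Nfib over empty vector, for each of the 32 genes (1 point per gene) in the 4 pairs, with the median of each branch as a black bar. The median of the chaperone and Xbp1 branch stays near 0 in all pairs, with Xbp1 at 0.21 to 0.64, while every gene of the Atf4 branch lies above 0 in pairs 3 and 4 (the cultures called new), with medians of 0.40 and 0.29.

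The 14 Atf4 genes contained no gene that rose or fell, but their within-pair ratios differed between the pairs. Their median log2 ratio of Nfib over empty vector was 0.40 in pair 3 and 0.29 in pair 4, the cultures called new, against 0.0011 in pair 1 and -0.12 in pair 2, the cultures called old. All 14 were higher in the Nfib library in pair 3 and all 14 in pair 4, while 7 of 14 were in pair 1 and 4 of 14 in pair 2. For the chaperone and Xbp1 branch the medians were -0.01 in pair 3 and 0.04 in pair 4, and 0.04 in pair 1 and 0.06 in pair 2. Over all genes the median lay between -0.0040 and 0.0001 in the 4 pairs.

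The test of this difference, the interaction of Nfib with the words new and old in edgeR with the pair as a block, called 0% of all genes and no member after adjustment. DESeq2's form of the test called 7 genes, no member among them. At an unadjusted p under 0.05 the edgeR interaction picked 10 of the 14 Atf4 genes and 0 of the 18 chaperone and Xbp1 genes, against 3.03% of all genes. Its estimate was higher in the new cultures for all 14 Atf4 genes, for 8 of the 18 others and for 6724 of the 13380 genes tested. The 14 genes are read in the same 8 libraries and are not independent of each other. The members were also chosen with earlier results of these data known. These counts therefore describe the 14 genes and do not test the branch.

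Vldlr, a lipoprotein receptor gene, had the smallest interaction p of the members. Its within-pair log2 ratios were 0.27 in pair 3 and 0.29 in pair 4, against -0.68 in pair 1 and -0.58 in pair 2, a difference of 0.91 ± 0.12 (SE). The new pairs lie above 0 and the old pairs below it. The unadjusted edgeR p was 0.000874, and DESeq2 gave an adjusted p of 0.108. Because the directions oppose each other, Vldlr averaged 55.5 ± 34.1 CPM with Nfib and 55.8 ± 22.5 CPM with empty vector (SD, n = 4 each).

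Among the 3 transcription factors of the Atf4 branch, Atf4 itself (ENSMUSG00000042406, chromosome 15, 80255184 to 80257540) was an abundant mRNA. It stood at 358, 261, 470.0 and 503 CPM in Nfib libraries and at 358, 281, 379 and 439.7 CPM in empty vector libraries. The Nfib library was higher in pairs 3 and 4, level in pair 1 and lower in pair 2, and the DESeq2 log2 fold change was 0.09 ± 0.09 (SE, adjusted p of 0.787). Atf4 is controlled largely by translation of its mRNA, which these counts do not measure.

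Ddit3 (CHOP, a factor of the C/EBP family; chromosome 10, 127290774 to 127296288) stood at 8.93, 5.01, 20.4 and 21.7 CPM in Nfib libraries and 9.80, 5.11, 13.8 and 14.8 CPM in empty vector libraries. Its new libraries lie above its old ones in both arms. Atf3 (a factor raised by many stresses; chromosome 1, 191170296 to 191183340) stood at 4.88, 6.21, 16.1 and 9.05 CPM in Nfib libraries and 4.41, 5.91, 9.98 and 7.72 CPM in empty vector libraries. It was higher with Nfib in every pair, with a DESeq2 log2 fold change of 0.29 ± 0.21 (SE) and an adjusted p of 0.627.

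Of the 4 effectors, Trib3 (a pseudokinase that restrains Akt and Atf4; ENSMUSG00000032715, chromosome 2, 152337422 to 152344032) had the widest range among cultures. It stood at 29.8, 11.5, 65.0 and 119 CPM in Nfib libraries and 25.6, 15.7, 38.4 and 64.0 CPM in empty vector libraries. The Nfib library was the higher one in pairs 1, 3 and 4 and the lower one in pair 2. Its DESeq2 log2 fold change was 0.36 ± 0.24 (SE, adjusted p of 0.556) over 4 pairs, 0.62 with an adjusted p of 0.0165 without replicate 2, 0.23 without replicate 3 and 0.18 without replicate 4. Chac1, which degrades glutathione, had within-pair log2 ratios of 0.03, -1.07, 0.41 and 0.20 in pairs 1 to 4. Ddit4 (REDD1, an inhibitor of mTORC1) had within-pair log2 ratios of -0.11, 0.29, 0.21 and 0.34.

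The amino acid enzymes differed widely in level. Asns (asparagine synthetase; chromosome 6, 7675169 to 7693254) stood at 355, 276, 507 and 431 CPM in Nfib libraries and 391, 377, 459.5 and 407 CPM in empty vector libraries. Its within-pair change was negative in pairs 1 and 2 and positive in pairs 3 and 4. Cth (cystathionine gamma-lyase, which makes cysteine; chromosome 3, 157894248 to 157925077) stood at 6.23, 4.28, 43.7 and 32.6 CPM in Nfib libraries and 4.82, 5.35, 19.1 and 20.1 CPM in empty vector libraries. All 4 new libraries of Cth lie above all 4 old ones, and the log2 fold change with Nfib was 0.50 ± 0.27 (SE, DESeq2 adjusted p of 0.402). It was 0.77 without replicate 2 (adjusted p of 0.0304), 0.55 without replicate 1, 0.43 without replicate 4 and 0.26 without replicate 3, none of these 3 with a call.

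Phgdh and Psat1, the enzymes of the first steps of serine synthesis, were both higher with Nfib in all 4 pairs. Phgdh averaged 155 ± 33.8 CPM with Nfib and 122 ± 30.7 CPM with empty vector (SD, n = 4 each), with a DESeq2 log2 fold change of 0.34 ± 0.12 (SE) that missed the threshold (adjusted p of 0.0766). It passed when libraries were scaled by total counts (0.0424) and without replicate 2 (0.0220), and not without replicate 1 (0.121), replicate 3 (0.569) or replicate 4 (0.535). The reference lists 9 Phgdh pseudogenes with at least 95% identity over part of its transcript, so its counts are uncertain. The 3 of them in the table reached at most 0.221 CPM. Psat1 averaged 567 ± 40.7 CPM with Nfib and 498 ± 25.1 CPM with empty vector, a log2 difference of 0.18 ± 0.08 (SE, adjusted p of 0.200 in DESeq2). Shmt2, the mitochondrial enzyme that takes a carbon from serine, followed the pattern of Atf4, with log2 ratios of 0.39 and 0.19 in pairs 3 and 4 and -0.03 and -0.12 in pairs 1 and 2.

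Slc7a11 and Slc3a2 encode the light and heavy chains of the cystine and glutamate exchanger. Slc7a11 had within-pair log2 ratios of 0.43 and 0.92 in pairs 3 and 4, against -0.26 and -0.13 in pairs 1 and 2. For Slc3a2, which also partners other amino acid transporters, the ratios were 0.40 and 0.22 in pairs 3 and 4, against 0.0031 and -0.14 in pairs 1 and 2. A stretch of 4.04% of the Slc7a11 transcript is at least 95% identical to Tuba1a, Tuba1b, Tuba1c and other transcripts, of which the most abundant reached 559 CPM, so Slc7a11 counts are uncertain too. Neither transporter passed the Nfib test (DESeq2 adjusted p of 0.769 for Slc7a11 and 0.772 for Slc3a2).

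**Figure D2:**
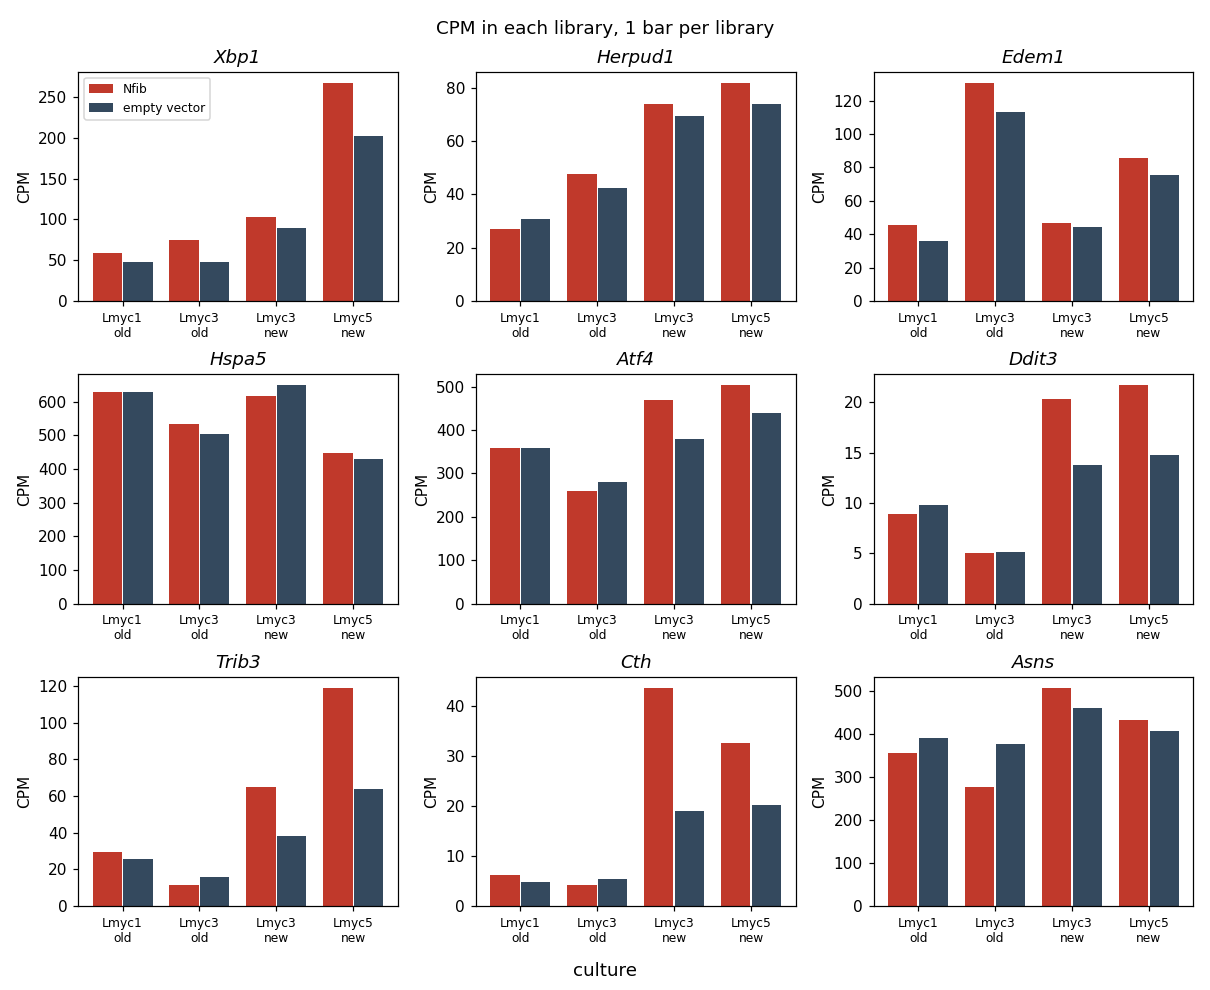
CPM of 9 genes in each library, with the Nfib library left of the empty vector library in each culture (1 bar per library, no error bars, axes start at 0). Xbp1 is higher with Nfib in all 4 cultures and reaches 268 CPM in Lmyc5 new, while Ddit3, Trib3 and Cth are low in both old cultures and higher in both new ones.

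Far more members differed between cultures than with Nfib. An edgeR test across the 4 cultures, with the arm as a covariate, called 25 of the 32 members (78.1%), against 76.7% of all genes, so a call among cultures was about as common in the members as in the table. It called 12 of the 14 Atf4 genes and 13 of the 18 chaperone and Xbp1 genes. The median distance between the highest and the lowest culture was 1.12 on the log2 scale (2.17-fold) for the Atf4 branch, 0.54 (1.45-fold) for the chaperone and Xbp1 branch, and 0.93 (1.90-fold) for all genes. Of the Atf4 genes, 7 spanned at least 2-fold, as did 3 of the other branch, namely Xbp1, Edem1 and Herpud1. The median over all genes, 1.90-fold, lies close to that limit, so such a span is common in the table. The spread behind this test is what is left after culture and arm, with 3 residual degrees of freedom and no repeat library of a culture and arm. With each culture left out in turn, 11 of the 25 calls held in all 4 fits: Calr, Edem1, Herpud1 and Xbp1 in one branch, and Atf3, Atf4, Chac1, Cth, Ddit3, Slc7a11 and Trib3 in the other. The other 14 calls were lost without 1 culture, for example Canx without Lmyc3 old (edgeR adjusted p of 0.198), Hsp90b1 without Lmyc3 new (0.242), Hspa5 without Lmyc5 new (0.0505) and Vldlr without Lmyc1 old (0.120). How many of the calls over all genes hold in all 4 fits was not counted, so 11 of 25 cannot be set against the table.

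**Figure D3:**
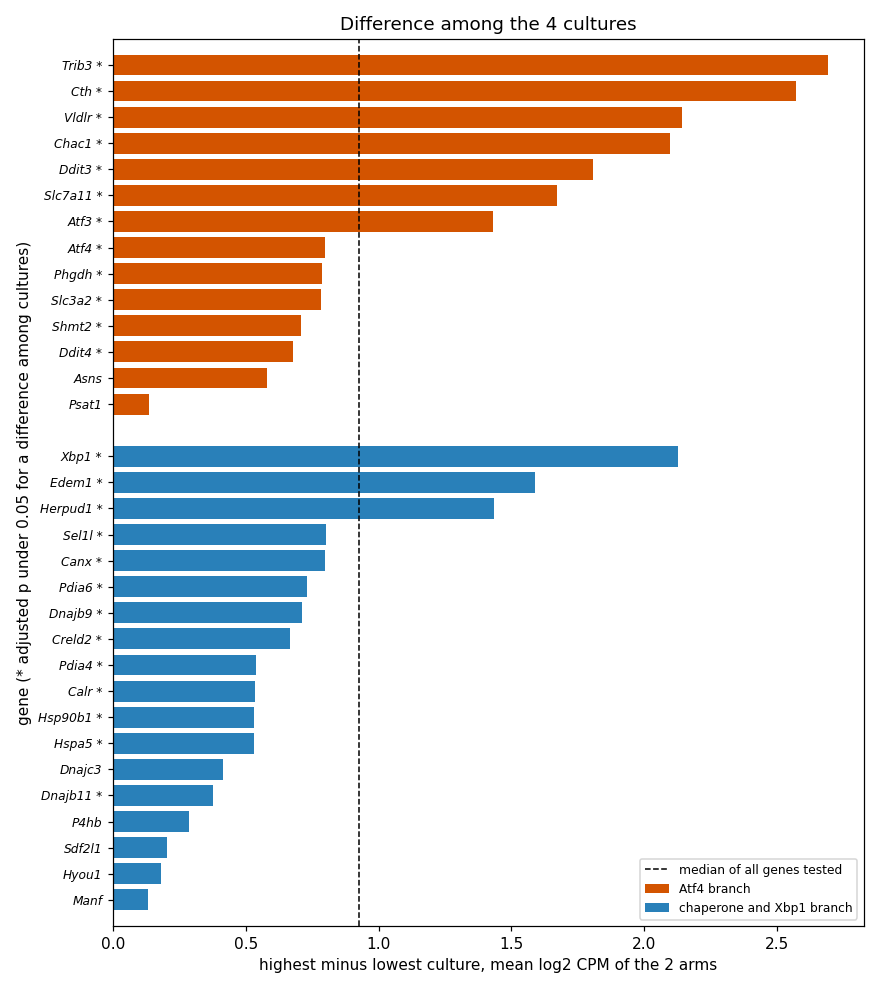
Distance between the highest and the lowest culture in mean log2 CPM of the Nfib and the empty vector library, 1 bar per gene, with the median of all genes tested as a dashed line at 0.93. Trib3 and Cth have the longest bars of the Atf4 branch and Xbp1 that of the other branch, and asterisks mark the 25 genes with an adjusted p under 0.05.

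The highest culture was Lmyc3 new or Lmyc5 new for 13 of the 14 Atf4 genes (all but Phgdh), for 12 of the 18 chaperone and Xbp1 genes and for 50.4% of all genes. The lowest was Lmyc1 old or Lmyc3 old for 13 of the 14 Atf4 genes (all but Psat1), for 10 of the 18 others and for 49.6% of all genes. These are orders of means, and 4 Atf4 genes (Chac1, Cth, Ddit3 and Slc7a11) passed the test as higher in both new cultures. Against the mean of the other 3 cultures, Lmyc5 new had 9 Atf4 genes higher and 0 lower, Lmyc3 new 7 higher and 0 lower, Lmyc3 old 1 higher and 8 lower, and Lmyc1 old 0 higher and 7 lower. For all 32 members these counts were 14 higher and 5 lower in Lmyc5 new, where 26.1% and 22.3% of all genes were called, and 14 higher and 1 lower in Lmyc3 new, where 26.8% and 23.9% were called. In Lmyc3 old they were 4 higher and 16 lower, against 28.6% and 27.4% of all genes, and in Lmyc1 old 2 higher and 10 lower, against 23.3% and 18.4%. The 4 contrasts share libraries and are not independent.

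The median level of the Atf4 genes relative to their mean over all libraries put these cultures in order. It was -0.38, -0.44, 0.47 and 0.50 on the log2 scale in the Nfib libraries of replicates 1 to 4, and -0.37, -0.31, 0.22 and 0.26 in the empty vector libraries. Both new cultures lie above both old ones in each arm, and the distance is wider in the Nfib arm. The chaperone and Xbp1 branch stayed between -0.10 and 0.19 in the Nfib libraries and between -0.14 and 0.15 in the empty vector libraries.

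**Figure D4:**
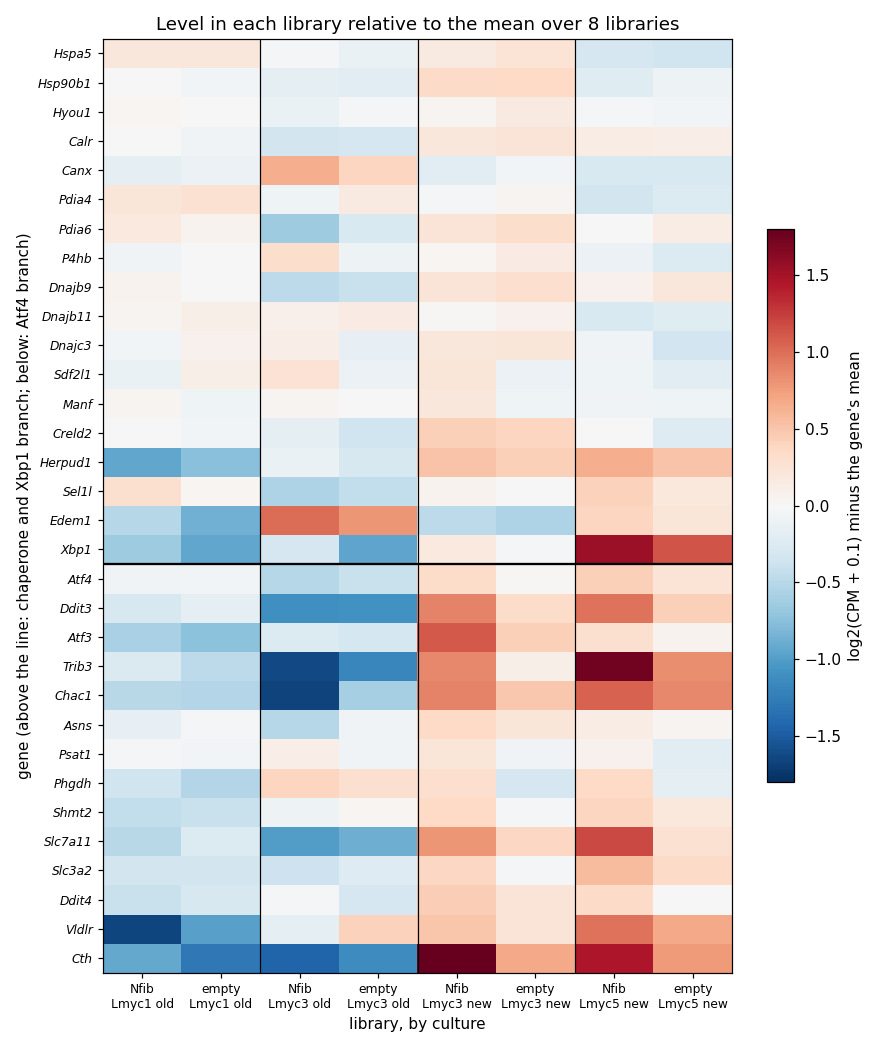
Level of each of the 32 genes in each library, as log2(CPM + 0.1) minus the gene's mean over 8 libraries, with the Nfib library left of the empty vector library in each culture and colours that end at 1.8. The Atf4 branch (below the line) is blue in the old cultures and red in the new ones for most genes, while the chaperones show pale colours. In mean level, Xbp1 and Herpud1 share an order, upward from Lmyc1 old through Lmyc3 old and Lmyc3 new to Lmyc5 new. Edem1 has another order, with Lmyc3 old highest.

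Trib3 and Cth showed the widest range of the Atf4 genes. Trib3 averaged 91.5 CPM in Lmyc5 new and 51.7 CPM in Lmyc3 new, against 27.7 CPM in Lmyc1 old and 13.6 CPM in Lmyc3 old, a 6.46-fold range with an edgeR adjusted p of 0.00334. Cth averaged 31.4 CPM in Lmyc3 new and 26.4 CPM in Lmyc5 new, against 5.52 CPM in Lmyc1 old and 4.81 CPM in Lmyc3 old, a 5.95-fold range (adjusted p of 0.00220). The 2 new cultures of Cth differ from each other far less than from the old ones. Ddit3 spanned 3.50-fold (adjusted p of 0.00338) and Atf3 2.70-fold (0.00565), with Atf3 highest in Lmyc3 new and Ddit3 highest in Lmyc5 new. Chac1 spanned 4.27-fold, Vldlr 4.42-fold and Slc7a11 3.19-fold.

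The abundant Atf4 genes moved less between cultures. Atf4 spanned 1.74-fold (edgeR adjusted p of 0.00592), with means of 472 CPM in Lmyc5 new and 424 CPM in Lmyc3 new, against 358 CPM in Lmyc1 old and 271 CPM in Lmyc3 old. Asns spanned 1.49-fold and missed the threshold (adjusted p of 0.0552), and Psat1 spanned 1.10-fold (0.486). Phgdh ran differently, with its highest mean of 171 CPM in Lmyc3 old and its lowest of 99.1 CPM in Lmyc1 old. Per kilobase of exon (RPKM), the mean level over 8 libraries was 162 for Atf4, 146 for Asns and 125 for Psat1, against 21.7 for Trib3, 7.26 for Ddit3, 6.10 for Cth, 3.73 for Atf3 and 1.79 for Slc7a11. Within the Atf4 branch, the 7 genes with a range of at least 2-fold among cultures had lower levels per length than the other 7.

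Within the chaperone and Xbp1 branch, the wide differences lay outside the chaperones. Xbp1 averaged 235 CPM in Lmyc5 new, against 96.5 CPM in Lmyc3 new, 61.1 CPM in Lmyc3 old and 53.5 CPM in Lmyc1 old, a 4.36-fold range with an edgeR adjusted p of 0.000185. Lmyc5 new stood 1.78 ± 0.09 (SE) above the mean of the others on the log2 scale. Per kilobase of exon Xbp1 averaged 34.3 RPKM, below Hsp90b1 at 171 RPKM and Calr at 167 RPKM.

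The 3 genes of ER-associated degradation, which sends misfolded proteins to the proteasome, differed among cultures, each in its own order. Edem1 (a lectin that picks glycoproteins for disposal; chromosome 6, 108828641 to 108859356) stood at 45.6, 131, 46.8 and 85.6 CPM in Nfib libraries and 35.9, 113, 44.5 and 75.6 CPM in empty vector libraries. Lmyc3 old was the highest culture of Edem1 in both arms, and the range was 3.01-fold (edgeR adjusted p of 0.000212). Herpud1 (a scaffold of the degradation complex; chromosome 8, 94386438 to 94395377) stood at 26.9, 47.6, 73.9 and 81.9 CPM in Nfib libraries and 30.7, 42.6, 69.5 and 73.8 CPM in empty vector libraries. Its new cultures lie above its old ones in both arms, as for the median of the Atf4 genes. The same held for Xbp1, whose promoter has none of the letters searched. The Herpud1 promoter holds both the second ER stress form and an Atf4 core, as printed above, and their part in this order was not tested. The range of Herpud1 was 2.70-fold with an edgeR adjusted p of 0.000611. Sel1l, an adaptor of the same complex, was lowest in Lmyc3 old, at 146 CPM, and highest in Lmyc5 new, at 255 CPM (1.74-fold, adjusted p of 0.00425).

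Of the 8 folding genes, 6 differed among cultures, within a range of 1.45-fold (Hspa5) to 1.74-fold (Canx, calnexin, adjusted p of 0.00367), and Hyou1, an Hsp70-like chaperone, and P4hb did not pass (1.13-fold, edgeR adjusted p of 0.161, and 1.22-fold, 0.257). Hspa5 averaged 632 CPM in Lmyc3 new and 629 CPM in Lmyc1 old, against 518 CPM in Lmyc3 old and 437 CPM in Lmyc5 new (1.45-fold, edgeR adjusted p of 0.00315). Lmyc5 new, the culture of highest Xbp1, was thus the lowest for Hspa5, at -0.44 ± 0.06 (SE) on the log2 scale against the others. Calr spanned 1.45-fold with its lowest level in Lmyc3 old (adjusted p of 0.00312), and Hsp90b1 (the ER Hsp90, which overlaps a gene on the other strand) 1.45-fold with its highest in Lmyc3 new (0.00408). Canx had 960 CPM in the Nfib library and 796 CPM in the empty vector library of Lmyc3 old, while the other 6 libraries lay between 500.0 and 586 CPM.

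Of the 6 cochaperones and secreted ER factors, Dnajb9, Dnajb11 and Creld2 differed among cultures, and Dnajc3, Sdf2l1 and Manf did not pass. Dnajb9 and Dnajb11 are J-domain partners of Hspa5, and Creld2 is an ER protein raised by stress. Dnajb9 spanned 1.64-fold (edgeR adjusted p of 0.00582) and Creld2 1.59-fold (0.00531), each highest in Lmyc3 new and lowest in Lmyc3 old. Manf, a secreted ER stress factor, spanned 1.10-fold, between 101 and 121 CPM in Nfib libraries and between 99.7 and 106 CPM in empty vector libraries.

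The cultures Lmyc3 old and Lmyc3 new carry the same line name and differed at many members. In the contrast of Lmyc3 old against Lmyc3 new, 2 members were higher and 19 lower, against 29.5% of all genes higher and 30.4% lower. The 2 higher ones were Canx, by 0.65 ± 0.11 on the log2 scale, and Edem1, by 1.41 ± 0.09 (SE). Among the 19 lower were 10 of the 14 Atf4 genes, led by Cth at -2.59 ± 0.36 (edgeR adjusted p of 0.00208), Trib3 at -1.86 ± 0.33 (0.00501), Chac1 at -1.76 ± 0.36 (0.00784) and Ddit3 at -1.73 ± 0.24 (0.00202). No Atf4 gene was higher. Of the 8 folding genes, 4 were lower, namely Pdia6 at -0.72 ± 0.12, Calr at -0.53 ± 0.07, Hsp90b1 at -0.53 ± 0.08 and Hspa5 at -0.29 ± 0.07, while P4hb, Pdia4 and Hyou1 did not pass. Among the lower Atf4 genes, Atf4 (-0.64), Asns (-0.57), Ddit4 (-0.50) and Slc3a2 (-0.47) had estimates in that same range. The empty vector level of Nfib also differed between Lmyc3 old and Lmyc3 new (400.2 and 163 CPM), and its part in these differences was not tested.

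Genes of the same pathways outside the 32 were read from 4 further lists. Of 15 tested sensors and partners of the unfolded protein response, 0 rose and 1 fell (1.86% and 2.2% of all genes). The one that fell was Creb3l2, an ER-bound factor of the Creb family, at 25.0, 6.12, 24.8 and 67.8 CPM with Nfib against 52.8, 12.8, 38.7 and 81.8 CPM with empty vector (-0.76 ± 0.18 on the log2 scale, SE, with a DESeq2 adjusted p of 0.00197). Its Nfib library was the lower one in every pair, and the call was lost without replicate 1 (adjusted p of 0.0660). Ern1, the gene of Ire1 that splices Xbp1, had a log2 fold change of -0.12 ± 0.09 (adjusted p of 0.652). Across cultures 13 of the 15 differed (86.7%, against 76.7% of all genes). Ern1 averaged 87.0 CPM in Lmyc3 new and 67.0 CPM in Lmyc1 old, against 48.0 CPM in Lmyc5 new and 38.7 CPM in Lmyc3 old, so its lower levels included the culture of highest Xbp1. Creb3l2 spanned 8.35-fold, Crebrf 2.58-fold, Mbtps1 (the protease that cuts Atf6) 2.49-fold and Creb3l1 44.8-fold among cultures. In Lmyc3 old, Creb3l1 was at only 0.138 CPM in the Nfib library and 0.331 CPM in the empty vector library. Its range thus rests on few counts.

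Of 51 other ER genes for folding, translocation and degradation, 1 rose and 0 fell (1.86% and 2.2% of all genes), and 44 differed among cultures (86.3%, against 76.7% of all genes). The one that rose was Sec24d, a coat protein of vesicles leaving the ER, at 4.18, 52.4, 35.1 and 1.48 CPM with Nfib against 0.882, 7.24, 30.5 and 0.632 CPM with empty vector. Its log2 fold change was 1.64 ± 0.44 (SE, DESeq2 adjusted p of 0.00906), and the call was lost without replicate 1 (0.102) and without replicate 2 (0.145). Among the genes with the smallest culture p-values of this list were Ube2j2 (a ubiquitin-conjugating enzyme of ER degradation, 3.13-fold range), Spcs3 (a signal peptidase subunit, 4.63-fold), Stt3b (an oligosaccharyltransferase, 2.04-fold) and Tram1 (a translocon protein, 1.78-fold).

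Of 32 other Atf4 targets and stress response genes, 3 rose and 0 fell with Nfib (1.86% and 2.2% of all genes). Among cultures, 24 differed (75.0%, against 76.7% of all genes). Gpt2, a mitochondrial alanine transaminase, stood at 64.5, 99.1, 193 and 272 CPM with Nfib against 54.3, 65.2, 123 and 153 CPM with empty vector. Its Nfib library was higher in every pair, the log2 fold change was 0.58 ± 0.12 (SE, DESeq2 adjusted p of 0.000138), and the call held with each pair left out in turn. Aldh1l2 and Mthfd2, both of mitochondrial folate metabolism, rose by 0.35 ± 0.11 (adjusted p of 0.0289) and 0.21 ± 0.06 (0.0364). Mthfd2 lost its call with any pair left out (DESeq2 adjusted p of 0.107 to 0.564), and Aldh1l2 without replicate 2 (0.0887), 3 (0.358) or 4 (0.360). The median within-pair log2 ratio of this list was 0.17 and 0.25 in pairs 3 and 4, against 0.03 and -0.02 in pairs 1 and 2. Among cultures, Slc7a3, a transporter of cationic amino acids, spanned 67.4-fold, with 259.8 CPM in Lmyc3 new and 3.79 CPM in Lmyc3 old, and Cbs, which feeds cystathionine to Cth, spanned 37.6-fold with its highest level of 19.2 CPM in Lmyc1 old. Slc6a9 (a glycine transporter) spanned 4.93-fold, Gpt2 3.45-fold and Psph, the last enzyme of serine synthesis, 2.84-fold.

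Of 13 tRNA synthetases that Atf4 is known to raise, 1 rose and 0 fell (1.86% and 2.2% of all genes). Among cultures, 8 differed (61.5%, against 76.7% of all genes). The one that rose was Vars, by 0.22 ± 0.05 on the log2 scale (SE, DESeq2 adjusted p of 0.00413), with a call that was lost with any pair left out (0.0639 to 0.366). The median within-pair log2 ratio was 0.17 and 0.16 in pairs 3 and 4, against -0.03 in both of pairs 1 and 2. Aars, Yars, Lars and Nars each spanned between 2.03-fold and 2.18-fold among cultures.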

How the data were processed

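The authors deposited a table of whole read counts per Ensembl gene, not normalized, with symbols and GRCm38 coordinates. Per the labels' protocols, libraries followed the TruSeq RNA preparation of Illumina. Per the submitters' processing notes, the tools were TopHat2 2.1, Bowtie 1.0.0, SAMtools 0.1.19 and, with no version, DESeq2. No source used here gives the counter or whether it used strand, so overlapping genes cannot be told apart: 10.3% of the exon bases of Hsp90b1 overlap a gene on the other strand. A further allele of the labelled genotype and 1 gene that the naming rule picks are not reported here, while counts over lists include that gene.

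Nfib was compared with empty vector by the quasi-likelihood test of edgeR 4.0.16 (R 4.3.3, original form) without a block, with TMM scaling and edgeR's filter by group. Since it called no gene, rose and fell refer to DESeq2 1.42.0 with the pair as a block, an alternative. It left the adjusted p of 260 genes undefined, none of them members. The labels pair libraries by cell line: deviations from group means correlated at 0.884 to 0.935 within a number and at most 0.0647 otherwise. Cultures were compared by edgeR with the arm as covariate. EdgeR gives no SE, and its ± is the estimate over the square root of F. CPM use TMM-scaled totals. Within-pair log2 ratios use a prior count of 2. RPKM use union exon lengths. Limits of a 0 cover counting error only.

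All 32 members were accounted for by role. Values in every library were given for members that passed, for heads of the branches (Hspa5, Xbp1, Atf4, Ddit3, Trib3, Asns) and for the 4 members a branch with the smallest culture p. Of other lists, passing genes and up to 5 with the smallest culture p were named. Canx, Vldlr and others given in pairs were added after their values were seen. The members, lists and tests were chosen with earlier results of these data known. Fits were tested on simulated counts.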

Additional observations from a re-analysis of the deposited data

Results flagged for a closer look

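In 4 of 64 groups of 4 libraries examined (32 genes in 2 arms), 1 library lay far from the other 3, and chance alone flags about 1 in 20 groups. Canx had 960 CPM in the Nfib library of replicate 2 (Lmyc3 old), against 543 CPM in the nearest Nfib library. Phgdh had 105 CPM in the Nfib library of replicate 1 (Lmyc1 old), against 167 CPM in the nearest Nfib library. Manf had 106 CPM in the empty vector library of replicate 2, against 100.2 CPM in the nearest empty vector library, a small distance in a group that varies little. Psat1 had 460.1 CPM in the empty vector library of replicate 4 (Lmyc5 new), against 507 CPM in the nearest empty vector library.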

How the results depend on the processing

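EdgeR without the block called 0 genes for Nfib, and the same 0 came with DESeq2 size factors, total counts, other filters, the replicate block, or any replicate left out. With the replicate block, the bias-adjusted form of edgeR called 44 genes and limma voom 3, and DESeq2 without the block called 3, with 0 members in each. DESeq2 with the replicate block called 543 genes and 1 member, 525 genes and 2 members with total counts, and 605 genes and 1 member without a filter. Leaving out replicates 1, 2, 3 and 4 from it gave 351, 382, 234 and 251 genes, and 0, 4, 1 and 0 members (Xbp1, Trib3, Phgdh and Cth without replicate 2). The interaction called 7 genes in DESeq2. Members that differ among cultures numbered 25 or 26 under every other tool, scaling or filter, and 21 to 23 with a replicate left out. With total counts the median log2 ratio of the chaperone and Xbp1 branch was 0.071 in pair 1 and 0.079 in pair 4.

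Of the member estimates under alternatives, 569 kept direction and call, 9 passed where the first test had not, and 30 changed sign, none of them with a call. Chac1 was -0.079 (edgeR, block), -0.042 (bias-adjusted), -0.10 (DESeq2, block), -0.067 (total counts) and -0.10 (no filter). With total counts Hsp90b1 was 0.015 (DESeq2) and 0.016 (edgeR) and Vldlr 0.026 (edgeR), and without a filter Calr was -0.0012 (DESeq2). In DESeq2 with a replicate left out, Calr was -0.019 and Chac1 -0.15 (without 1), Hspa5 -0.011, Canx -0.065, P4hb -0.020 and Asns 0.023 (without 2), Chac1 -0.27 (without 3), and Hspa5 -0.0031, Hsp90b1 0.024, Calr -0.00023 and Chac1 -0.20 (without 4). In edgeR, Calr was -0.011 and Vldlr 0.056 (without 1), Hspa5 -0.015, Canx -0.063, P4hb -0.023, Asns 0.039 and Vldlr 0.17 (without 2), Chac1 -0.031 (without 3), and Hspa5 -0.0023 and Hsp90b1 0.026 (without 4). The culture tests rest on 1 library per culture and arm, and at 3 counts the depth of a library sets a floor of 0.138 CPM or less.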
